A study of Mus musculus with 2 samples.

Results

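The genes described here are 10 members of the Bcl2 family, chosen by name from the 23946 genes in the deposited counts. Of these, 5 are pro-survival genes (Bcl2, Bcl2l1, Mcl1, Bcl2a1b, and Bcl2a1d) and 5 are pro-death genes (Bcl2l11, Bbc3, Pmaip1, Bax, and Bak1). All 10 had counts in both libraries. The Bcl2 family controls the mitochondrial route to apoptosis. Pro-survival proteins hold the effectors Bax and Bak1 in check, and BH3-only proteins such as Bim (from Bcl2l11), Puma (from Bbc3), and Noxa (from Pmaip1) bind the pro-survival proteins and free the effectors to open the outer mitochondrial membrane. Lymphocytes are known to depend on Bcl2 and Mcl1, neutrophils on Mcl1 and the Bcl2a1 genes, and Bim sets the lifespan of many blood cells.

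Cells expressing CD45, the surface marker of leukocytes, were sorted from hearts of female C57BL6 mice and profiled by 3′ single-cell RNA-Seq. TTS mice received isoproterenol (ISO), a β-adrenergic agonist used to model takotsubo syndrome, at 200 mg/kg by intraperitoneal injection and were studied after 24 hours. Control mice received the vehicle, according to the methods, although the sample descriptions give the ISO treatment for both samples and only the title names the control. Cells of 3 hearts were pooled and 15000 cells were loaded for each of the 2 libraries. The age of these mice is not given in the labels, and the methods give a range of ages for mice of the model. Dead cells were removed by the sort, so cells that had already died were not sampled. With 1 library per group, no test was made and no difference has a replicate check.

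The libraries held 47382455 UMIs (unique molecular identifiers, which count RNA molecules) in 5927 Control barcodes and 58495112 UMIs in 5514 TTS barcodes. The cell filters of the methods kept 5641 Control and 5437 TTS cells, with medians of 4790 and 8537 UMIs per cell. The libraries shared 15 of the kept barcodes. Cells were assigned to 4 lymphocyte classes (B, T, and NK cells and group 2 innate lymphoid cells, ILC2) and 4 myeloid classes (neutrophils, macrophages, monocytes, and dendritic cells, DCs) by the summed level of marker genes, none of which is a family member. Gates were passed by 4088 Control and 3877 TTS cells of a clear class. A further 1384 Control cells (24.5%) and 1125 TTS cells (20.7%) passed gates of more than 1 lineage and were left out, and 169 and 435 cells passed none. Macrophages and monocytes counted as 1 lineage here, as did T cells, NK cells, and ILC2, and the DC gate was not counted. Cells that passed both the macrophage and the monocyte gate were classed as macrophages. DCs were cells that passed the DC gate and no other, or beside it only the monocyte gate.

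B cells made up 35.7% of kept Control cells (2012 cells, exact 95% interval 34.4 to 36.9) and 0.864% of kept TTS cells (47 cells, 0.636 to 1.15), a share 41.3-fold lower (25.9-fold, with 2151 and 80 cells, when barcodes of 2 lineages are kept). NK cells went from 422 to 33 cells, a share 12.3-fold lower, and T cells from 215 to 41, a share 5.05-fold lower (3.37-fold with barcodes of 2 lineages kept). ILC2 (159 and 95 cells) and neutrophils (126 and 71 cells) had shares 1.61-fold and 1.71-fold lower. Whether neutrophils were fewer depends on the gates, since the class holds 126 of 384 (32.8%) Control cells that passed the neutrophil gate and 71 of 856 (8.29%) of TTS. With barcodes of 2 lineages kept it held 223 and 497 cells, with doubled cut-offs 136 and 204, and with halved cut-offs 111 and 40. The paper, with its own clusters, reports more neutrophils after ISO. Macrophages (1014 and 2484 cells), DCs (92 and 323 cells), and monocytes (48 and 783 cells) had shares 2.54-fold, 3.64-fold, and 16.9-fold higher in TTS. These shares also depend on the gates, with 1.43-fold for macrophages at doubled cut-offs and 1.44-fold with barcodes of 2 lineages kept, and 9.92-fold for monocytes at halved cut-offs. The monocyte class holds 48 of 124 (38.7%) Control cells that passed the monocyte gate and 783 of 3609 (21.7%) of TTS. Cells that also passed the macrophage gate are in the macrophage class, so the 2 classes are not separate populations. The lymphocyte values in TTS therefore rest on far fewer cells than those in Control, and the monocyte values on far fewer in Control. Of the TTS cells that passed the B cell gate, 47 of 208 (22.6%) passed no gate of another lineage, with the DC gate not counted, against 2012 of 2829 (71.1%) in Control.

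All markers of its own list that the counts hold were detected in each class and library, except for 1 of 10 neutrophil markers in either library. Levels in CPM relate a gene's UMIs to the total of the class in that library. B cells had 6941 CPM of summed B cell markers in Control and 5322 CPM in TTS. Macrophage markers were at 604 CPM in Control B cells and 1847 CPM in TTS B cells, led by Apoe. This is 2.24% and 18.1% of their level in the macrophages of the same library, which was 26966 CPM in Control and 10233 CPM in TTS. In T cells, NK cells, ILC2, and neutrophils of TTS this share was 6.03%, 3.15%, 5.34%, and 10.7%, against 1.26%, 0.764%, 0.770%, and 2.80% in Control. These shares also rise because the level in macrophages was lower in TTS, and the summed markers went from 341 to 617 CPM in T cells, 206 to 323 CPM in NK cells, 208 to 547 CPM in ILC2, and 754 to 1091 CPM in neutrophils. The median cell went from 157 to 0 CPM in T cells and from 138 to 0 CPM in ILC2, so the sums of these classes were not spread over all cells. The part of macrophage RNA in the member values was not tested, and for some members values of cells below a limit on macrophage markers are given. TTS macrophages also had a median of 8028 CPM of monocyte markers beside 8041 CPM of macrophage markers, whereas Control macrophages had 912 and 26185 CPM, so this class did not hold the same kind of cell in both libraries. DCs had 2349 CPM of DC markers and 1735 CPM of monocyte markers in Control, and 1859 and 2736 CPM in TTS by summed UMIs, while the median TTS DC had 1713 and 1611 CPM. TTS neutrophils had 1494 CPM of endothelial markers, led by Fabp4, against 148 CPM in Control.

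The gates are cut from a range of scores. Within 1.5 times the cut-off lay 6 of 2012 Control and 2 of 47 TTS B cells, 34 of 1014 and 448 of 2484 macrophages, 16 of 48 and 200 of 783 monocytes, and 10 of 92 and 76 of 323 DCs. So did 4 of 215 and 4 of 41 T cells, 7 of 422 and 6 of 33 NK cells, 0 of 159 and 6 of 95 ILC2, and 0 of 126 and 1 of 71 neutrophils. The median NK cell had 25902 CPM of NK cell markers in Control and 11055 CPM in TTS. Other classes' markers had medians of 0 CPM in B cells for T cell, NK cell, ILC2, and neutrophil markers in both libraries. Their medians were 337 CPM in Control and 1515 CPM in TTS for macrophage markers, 334 and 1281 CPM for monocyte markers, and 1220.1 and 926 CPM for DC markers. T cells had medians of 227 and 668 CPM of monocyte markers. TTS macrophages held these markers as well, and the source of this RNA was not tested.

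Past 2-fold, members were mostly on the higher side in TTS. In B cells, 4 of 10 members were at least 2-fold higher in TTS, where 15.2% of all 10526 genes with at least 20 UMIs were, and 0 were lower (11.0% of all genes). Of these 4, Mcl1 (log2 ratio 0.10), Bcl2a1b (-0.13), and Bcl2a1d (0.86) were under 2-fold in B cells below 1000 CPM of macrophage markers. Bcl2l1 (2.80), Bbc3 (1.22), and Bak1 (1.77) were past it in such cells, with at most 5 UMIs each in TTS. T cells had 6 of 10 members higher (11.6% of genes) and 0 lower (11.7%), and ILC2 had 5 of 10 higher (9.92%) and 0 lower (6.28%). Among NK cells, 3 of the 9 members with enough UMIs were higher (8.69%) and 0 lower (17.0%), with Bcl2a1d at 11 and 4 UMIs. The myeloid classes were less alike. Neutrophils had 5 of 10 members higher (20.5% of genes) and 0 lower (11.9%), monocytes 3 higher (14.4%) and 1 lower (19.6%), macrophages 2 higher (7.94%) and 0 lower (22.6%), and DCs 1 higher (7.30%) and 0 lower (9.05%). Median log2 ratios of the pro-survival members were 2.23 in B cells, 1.23 in T cells, 0.41 in NK cells, 0.91 in ILC2, 2.65 in neutrophils, 0.56 in macrophages, 0.35 in monocytes, and 0.60 in DCs. Those of the pro-death members were 0.82, 0.85, 0.12, 1.37, 0.40, 0.76, -0.08, and 0.36 in the same order, above the pro-survival median in ILC2 and macrophages. Medians over all genes lay between -0.29 in macrophages and 0.10 in ILC2. Over the 79 pairs of member and class, 29 were at least 2-fold higher in TTS and 1 lower. By class, 7.30% to 20.5% of all genes were higher and 6.28% to 22.6% lower. The counting intervals of the libraries did not overlap in 39 pairs that were higher (49.4%) and 5 that were lower (6.33%). Of the 68665 pairs of any tested gene and class, this held for 12.7% and 15.3%. These genes were not matched to the members by level, and intervals are narrower where UMIs are many. Leaving mitochondrial, ribosomal protein, and Gm26924 UMIs out of the totals shifts all log2 ratios of T cells by -0.21 and of ILC2 by -0.17, and by 0.09 or less in size elsewhere. On that scale the sign changed for Bcl2 in T cells (-0.15) and Bbc3 in NK cells (0.03), Mcl1 in B cells (0.95) and Bcl2l1 in T cells (0.89) were under 2-fold, and Bcl2 in macrophages (-1.03) was past it.

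**Figure D1:**
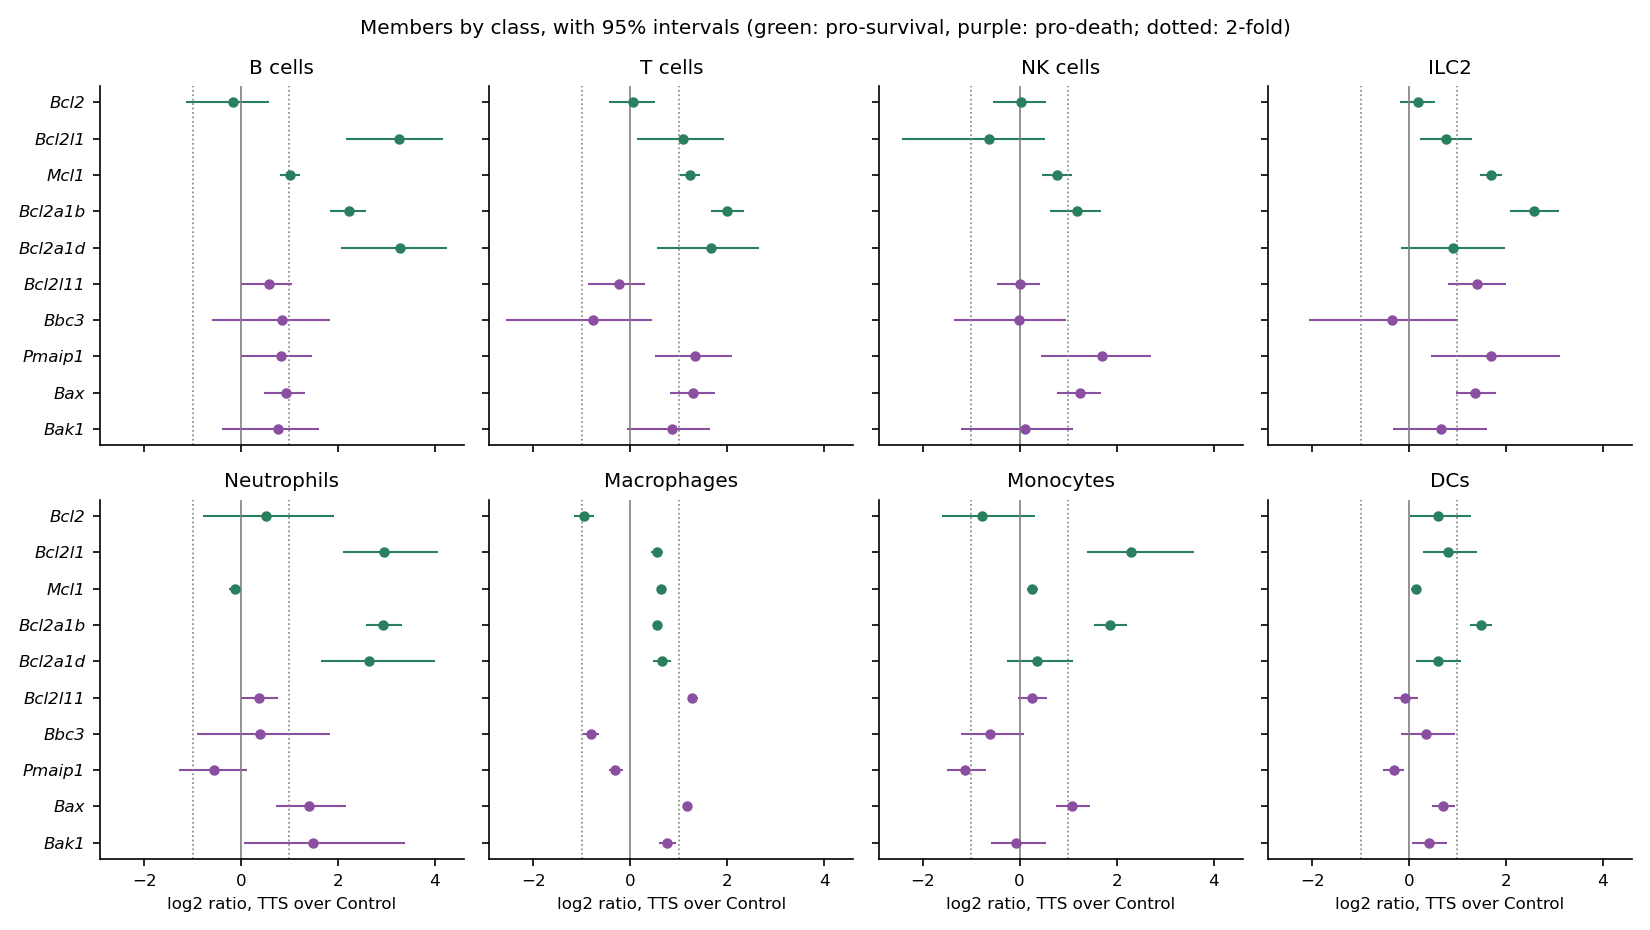
Log2 ratio of each member, TTS over Control, in the 8 marker-gated classes, with exact 95% intervals that cover counting error only. Green points are pro-survival and purple points pro-death members, and dotted lines mark 2-fold, and Bcl2a1b and Bax lie to the right of 0 in every class, whereas Bcl2 and Bbc3 stay between the dotted lines.

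The pooled balance set the summed UMIs of the pro-survival members against those of the pro-death members. These are counts of 3′ ends, which do not grow with transcript length. In Control, pro-survival members held 57.5% (exact 95% interval 55.3 to 59.7) of member UMIs in NK cells, 66.0% (64.9 to 67.1) in B cells, 67.7% (65.8 to 69.6) in DCs, and 70.8% (68.5 to 73.1) in T cells. Monocytes and ILC2 were at 75.6% (73.0 to 78.1) and 75.9% (72.6 to 78.9), macrophages at 81.4% (80.9 to 82.0), and neutrophils at 88.8% (87.1 to 90.2). NK cells were below every other class and neutrophils above every other class, and macrophages stood apart from both neighbours. B cells overlapped DCs, DCs overlapped T cells, and T cells overlapped monocytes and ILC2, which overlapped each other.

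The B cells that remained in the TTS library had a higher pro-survival share, at 72.8% (68.4 to 76.9), from 316 pro-survival and 118 pro-death UMIs. Pro-survival members were at 652 CPM in Control and 1512 CPM in TTS B cells, and pro-death members at 335 and 565 CPM. Both sides were thus higher, and the log2 ratio of their quotient was 0.46 (0.15 to 0.78). In the 15 TTS and 1658 Control B cells below 1000 CPM of macrophage markers, a limit chosen after the data were seen, the log2 ratio was -0.39 (-1.10 to 0.32), from 40 pro-survival and 27 pro-death UMIs in TTS, and this interval overlaps that of the full class. After subtraction of macrophage RNA it was 0.32, and with gate cut-offs halved 0.07.

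T cells had a pro-survival share of 78.7% (75.2 to 81.8) in TTS, above their Control interval, with a log2 ratio of the quotient of 0.60 (0.28 to 0.92). When each cell was thinned to 1000 UMIs before summing, the T cell value was 0.11. NK cells (59.8%, 54.2 to 65.3), ILC2 (77.3%, 74.4 to 79.9), and neutrophils (88.3%, 87.0 to 89.6) overlapped their Control intervals. The neutrophil log2 ratio of -0.06 was 2.36 without Mcl1 and -0.50 without the Bcl2a1 genes. Doubled cut-offs gave -0.62 in neutrophils and 0.70 in NK cells. Macrophages were lower, at 78.9% (78.6 to 79.2) and a log2 ratio of -0.23 (-0.29 to -0.17). Monocytes were at 78.8% (78.3 to 79.3, log2 ratio 0.26) and DCs at 71.1% (70.1 to 72.0, log2 ratio 0.23). Counted together with macrophages, monocytes had a log2 ratio of -0.20. The DC value was -0.12 in thinned cells and -0.01 without the Bcl2a1 genes.

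Set beside the shares of cells, NK cells and B cells had the lowest pro-survival shares in Control and lower shares of cells in TTS. Neutrophils had the highest pro-survival share and, with the main gates, also a lower share of cells, and DCs overlapped B cells in the pro-survival share and had a higher share of cells. Over the 8 classes, with the main gates, the log2 ratio of the share of cells had a Pearson correlation of 0.46 with the Control pro-survival share. Its correlation with the log2 ratio of the quotient was -0.38. With doubled cut-offs or barcodes of 2 lineages kept, the neutrophil share was 1.56-fold or 2.31-fold higher in TTS. The correlations were not computed for those gates. All these comparisons are descriptions without a test, since all classes come from the same 2 libraries and their shares of cells depend on each other.

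**Figure D2:**
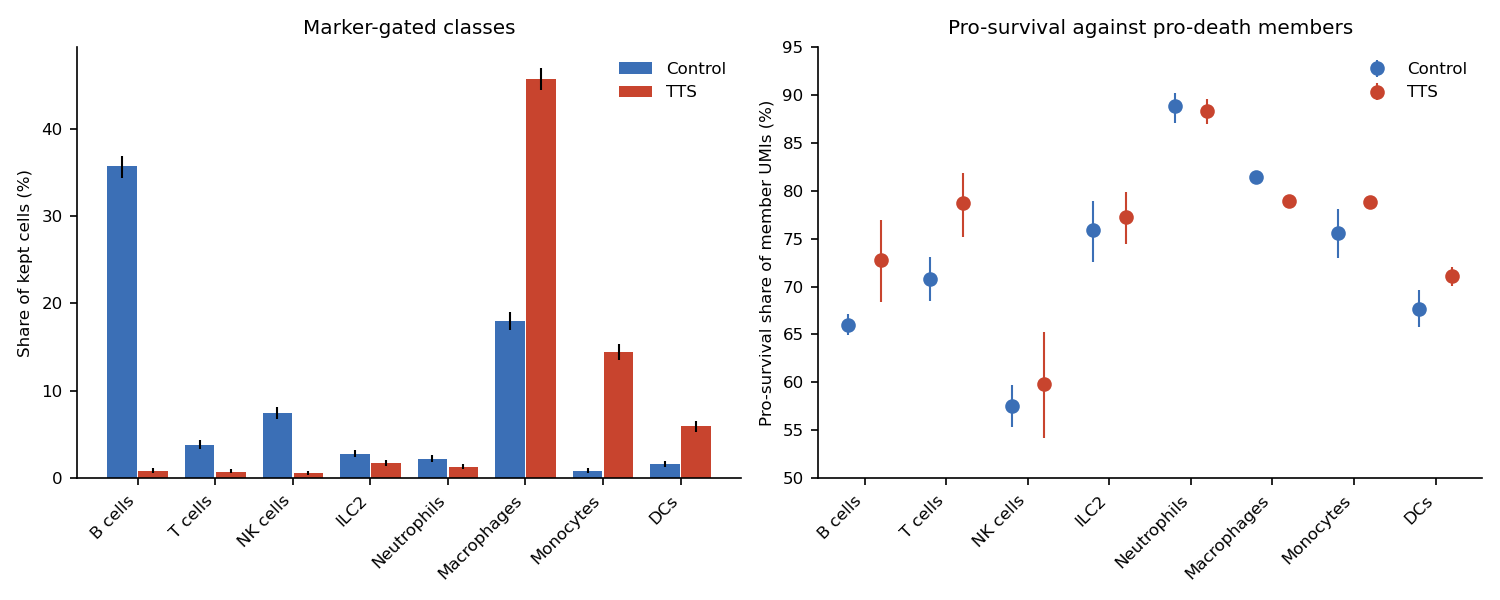
Left, share of kept cells (%) in each class as bars, and right, pro-survival share (%) of the UMIs of the 10 members as points on an axis that starts at 50%, for the 2 libraries with exact 95% Clopper-Pearson intervals. B cells went from 35.7% to 0.864% of cells, and their pro-survival share was 66.0% in Control and 72.8% in TTS.

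Mcl1, which encodes a short-lived protein that many leukocytes need, gave most pro-survival UMIs in 7 of the 8 Control classes. Its part was 75.8% of pro-survival UMIs in B cells and 93.4% in neutrophils, and 44.5% in ILC2. The level of Mcl1 in Control neutrophils was 3396 CPM (exact 95% Poisson interval 3218 to 3580.2), and in TTS neutrophils 3103 CPM (2939.8 to 3273). These intervals overlap, and neutrophils stood above all other classes in both libraries. Lymphocytes were at the lower end, below all myeloid classes in Control, while T cells overlapped DCs in TTS. B cells had 494 CPM (478 to 510) of Mcl1 in the Control library, against 1000.3 CPM (869 to 1145) in TTS, a log2 ratio of 1.02 (0.81 to 1.22). In T cells it was at 482 CPM (445 to 522) and 1128 CPM (999 to 1269), with a log2 ratio of 1.23, and in ILC2 at 270 CPM (237 to 305) and 868 CPM (786 to 956), with a log2 ratio of 1.69. NK cells had 354 CPM (326 to 384) and 607 CPM (498 to 732), with a log2 ratio of 0.78. Each of these classes was higher in TTS with no overlap. With equal weight for each cell, the log2 ratios were under 2-fold, at 0.77 in B cells, 0.70 in T cells, and 0.99 in ILC2, and with thinned cells at 0.85, 0.25, and 0.91. Halved cut-offs gave 0.64 in B cells and 0.55 in T cells, and subtraction of macrophage RNA gave 0.70 in B cells. NK cells were past 2-fold with doubled (1.46) and halved (1.23) cut-offs and with barcodes of 2 lineages kept (1.10). In B cells below 1000 CPM of macrophage markers, however, the Control library had 484 CPM (467 to 501) of Mcl1, and TTS 510 CPM (29 UMIs, log2 ratio 0.10). In T cells the same limit gave 457 and 734 CPM and a log2 ratio of 0.69. Macrophages (1335 and 2064 CPM), monocytes (1848 and 2214 CPM), and DCs (1149.8 and 1264 CPM) had log2 ratios of 0.63, 0.26, and 0.14.

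Bcl2, the founding pro-survival gene, was highest in ILC2, T cells, and NK cells in both libraries. Its Control levels were 199 CPM (172 to 230) in ILC2, 188 CPM (165 to 214) in T cells, and 176 CPM (157 to 198) in NK cells, which overlap. B cells were lower, at 72.2 CPM (66.3 to 78.5), followed by macrophages at 37.7 CPM (33.5 to 42.2) and by monocytes, DCs, and neutrophils between 22.3 and 27.6 CPM, and these myeloid classes overlap. Levels in TTS were 225 CPM (185 to 273) in ILC2, 195 CPM (144 to 258) in T cells, 178 CPM (122 to 251) in NK cells, and 62.2 CPM (33.1 to 106) in B cells, which overlap DCs at 37.5 CPM (31.1 to 44.9) and neutrophils at 32.2 CPM (17.6 to 54.1). The intervals of the 2 libraries overlap in each lymphocyte class. Log2 ratios were -0.16 (-1.13 to 0.57) in B cells, 0.06 (-0.43 to 0.50) in T cells, 0.03 (-0.56 to 0.54) in NK cells, and 0.18 (-0.18 to 0.53) in ILC2. Thinning each cell to 1000 UMIs before summing gave other values, 1.16 in T cells, 0.71 in NK cells, and -0.92 in B cells, so equal levels in the 2 libraries are not shown. With 13 UMIs in TTS B cells, the interval does not exclude a level 2-fold lower. B cells below the macrophage limit had 69.1 and 105 CPM, the other direction, with 6 UMIs in TTS. Macrophages alone had intervals that did not overlap, with 37.7 CPM in Control and 19.5 CPM (17.8 to 21.3) in TTS, a log2 ratio of -0.95 (-1.16 to -0.74). This was past 2-fold with doubled cut-offs (-1.18), with barcodes of 2 lineages kept (-1.29), without the 5% of cells with most UMIs (-1.05), in thinned cells (-1.01), and in the mean of CPM per cell (-1.22). Neutrophils, with 9 and 14 UMIs in the main gates, ranged from -1.39 to 3.15 over the alternatives, and monocytes were at -1.83 in thinned cells. The neutrophil value of -1.39 rests on 8 and 2 UMIs in cells below the macrophage limit. That of 3.15 is from thinned cells, with Bcl2 in 0 of 126 Control neutrophils, so its size is set by the added 0.5 UMI.

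Bcl2l1 encodes Bcl-xL, a pro-survival protein of mitochondria. It had its lowest Control level in B cells, at 6.16 CPM (4.53 to 8.19, 47 UMIs). TTS B cells had 57.4 CPM (29.7 to 100, 12 UMIs), a log2 ratio of 3.26 (2.17 to 4.16), and of 1.92 with halved cut-offs. Among B cells below 1000 CPM of macrophage markers, TTS had 2 UMIs, which gives 35.1 CPM against 6.21 CPM. The B cell intervals do not overlap in the full class, but the TTS level rests on few molecules. Control neutrophils had 27.2 CPM (13.6 to 48.7) and TTS neutrophils 219 CPM (177 to 267), a log2 ratio of 2.95 (2.10 to 4.06). Neutrophils below the macrophage limit gave 18.3 and 210 CPM, and with barcodes of 2 lineages kept the log2 ratio was 1.58. Monocytes had 20.1 CPM (8.66 to 39.5, 8 UMIs) and 104 CPM (97.0 to 112), a log2 ratio of 2.29. With monocytes and macrophages counted together it was 0.54. In macrophages, Bcl2l1 was at 87.0 CPM (80.7 to 93.8) and 127 CPM (123 to 132). ILC2, with 70.3 and 119 CPM (log2 ratio 0.76), and DCs, with 28.8 and 51.0 CPM (0.81, with 1.22 at doubled cut-offs and -0.34 in thinned cells), were also higher without overlap. T cells were past 2-fold with overlapping intervals, at 31.0 and 64.9 CPM, and under it in cells below the macrophage limit (0.65), in thinned cells (0.51), with halved cut-offs (0.56), and in the mean of CPM per cell (0.78). NK cells were the class with a lower value in TTS, 47.4 CPM (37.6 to 58.9) against 27.8 CPM (9.03 to 64.9). These intervals overlap, and doubled cut-offs turned the log2 ratio from -0.64 to 0.80.

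Bcl2a1b and Bcl2a1d encode A1, a pro-survival protein induced by NF-κB in activated leukocytes. Control neutrophils held 171 CPM (133 to 216) of Bcl2a1b and TTS neutrophils 1319 CPM (1213 to 1432), a log2 ratio of 2.94 (2.59 to 3.33). With barcodes of 2 lineages kept, which gives 497 TTS cells, it was smaller, at 1.54. The gene was higher in TTS in all 8 classes without overlap, and it was past 2-fold in 7. The exception was macrophages, where it was highest in Control, at 414 CPM (400 to 429), and at 609 CPM (599 to 619) in TTS. Log2 ratios of Bcl2a1b were 2.57 in ILC2, 2.23 in B cells, 1.86 in monocytes, 1.48 in DCs, and 1.18 in NK cells, and T cells were 4.01-fold higher. The ILC2 value was 1.46 with the mean of CPM per cell and 1.67 with doubled cut-offs, and the gene was found in 8.18% of Control and 13.7% of TTS ILC2 before thinning. Doubled cut-offs gave 3.04 in monocytes and 2.05 in NK cells. Control B cells had 74.1 CPM (68.1 to 80.4), and those of TTS 345 CPM (270 to 434). In B cells below the macrophage limit the levels were 67.2 CPM (60.9 to 73.9) and 52.7 CPM (10.9 to 154, 3 UMIs), with a log2 ratio of -0.13. The TTS interval still allows a level 2-fold higher, and subtraction of macrophage RNA gave 2.13. For T cells and neutrophils, the same limit gave 108 and 462 CPM, and 137 and 1528 CPM. The higher level was thus also found in T cells and neutrophils below the limit, which is set on macrophage markers only. TTS macrophages held monocyte markers as well, and the part of their RNA in these values was not tested. In B cells below the limit, the TTS interval lies under that of the full class (270 to 434 CPM). Whether their level differs from Control cannot be told from 3 UMIs. The monocyte ratio was 0.62 when monocytes and macrophages were counted together.

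Bcl2a1d had fewer UMIs, with 19.8 CPM (8.54 to 39.0) in neutrophils of Control and 131 CPM (99.4 to 170) in those of TTS, and 5.11 CPM (3.63 to 6.99) and 47.9 CPM (23.0 to 88.0) in B cells. Its log2 ratios were 2.65 and 3.28, and that of neutrophils was 1.25 with barcodes of 2 lineages kept. TTS B cells below the macrophage limit held 0 UMIs of it, which allows up to 64.8 CPM. T cells had 18.3 CPM (11.6 to 27.4) and 56.8 CPM (31.1 to 95.3, 14 UMIs), a log2 ratio of 1.66. Macrophages (37.3 and 58.7 CPM) and DCs (43.7 and 66.5 CPM) were higher without overlap and under 2-fold, although macrophages were at 1.23 in thinned cells and 1.02 with barcodes of 2 lineages kept. ILC2 (18.1 and 34.0 CPM) and monocytes (50.1 and 65.4 CPM) overlap, and monocytes were at 1.30 with doubled and 1.14 with halved cut-offs. The ILC2 log2 ratio of 0.91 was 0.05 without the 5% of cells with most UMIs, 0.10 in the mean of CPM per cell, and 0.26 in thinned cells. The split of counts between Bcl2a1b, Bcl2a1d, and their near-identical copy Bcl2a1a is uncertain. Of the 351 windows of 50 bases in the last 400 bases of the longest transcript, 58.4% in Bcl2a1b, 84.3% in Bcl2a1d, and 57.3% in Bcl2a1a occur without mismatch in another of these transcripts. The sum of all 3 genes does not depend on that split, but the labels do not say how reads that match more than 1 copy were counted, and if they were left out, the sum and the pro-survival shares are too low. Neutrophils had a sum of 282 CPM (233 to 339) in Control against 2067 CPM (1934 to 2207) in TTS, with 70.3 CPM (54.4 to 89.5) and 442 CPM (384 to 507) in ILC2 and 601 CPM (584 to 618) and 864 CPM (852 to 876) in macrophages. These sums were higher in TTS in the same way as Bcl2a1b, with log2 ratios of 2.87, 2.65, and 0.52.

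The copies lie on chromosome 9, Bcl2a1b at chr9:89199209-89207827 on the plus strand, Bcl2a1d at chr9:88723285-88731914 on the minus strand, and Bcl2a1a at chr9:88956900-88962419 on the plus strand (GRCm38). The 140 bases around the start of each gene are also nearly the same and are shown because both members were higher in TTS neutrophils. Of these bases, 70 lie upstream of Bcl2a1b and of Bcl2a1a and 26 upstream of Bcl2a1d, and the rest lie inside the genes. The sequences are from RefSeq on GRCm38.p6, where 9 of the 10 members were matched, at chr9:89199139-89199278, chr9:88731801-88731940, and chr9:88956830-88956969 in the order printed. Capitals mark the 3 positions that differ among the copies.
Bcl2a1b: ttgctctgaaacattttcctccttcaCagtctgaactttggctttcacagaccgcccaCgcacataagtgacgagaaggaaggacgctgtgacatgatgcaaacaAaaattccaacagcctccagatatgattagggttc
Bcl2a1d: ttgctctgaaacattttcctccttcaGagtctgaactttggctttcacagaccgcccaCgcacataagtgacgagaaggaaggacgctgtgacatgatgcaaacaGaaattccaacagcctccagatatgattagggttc
Bcl2a1a: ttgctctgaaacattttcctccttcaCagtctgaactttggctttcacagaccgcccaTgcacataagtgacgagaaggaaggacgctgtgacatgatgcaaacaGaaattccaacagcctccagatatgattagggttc
Bcl2a1d and Bcl2a1a each differ from Bcl2a1b at 2 of the 140 bases.

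**Figure D3:**
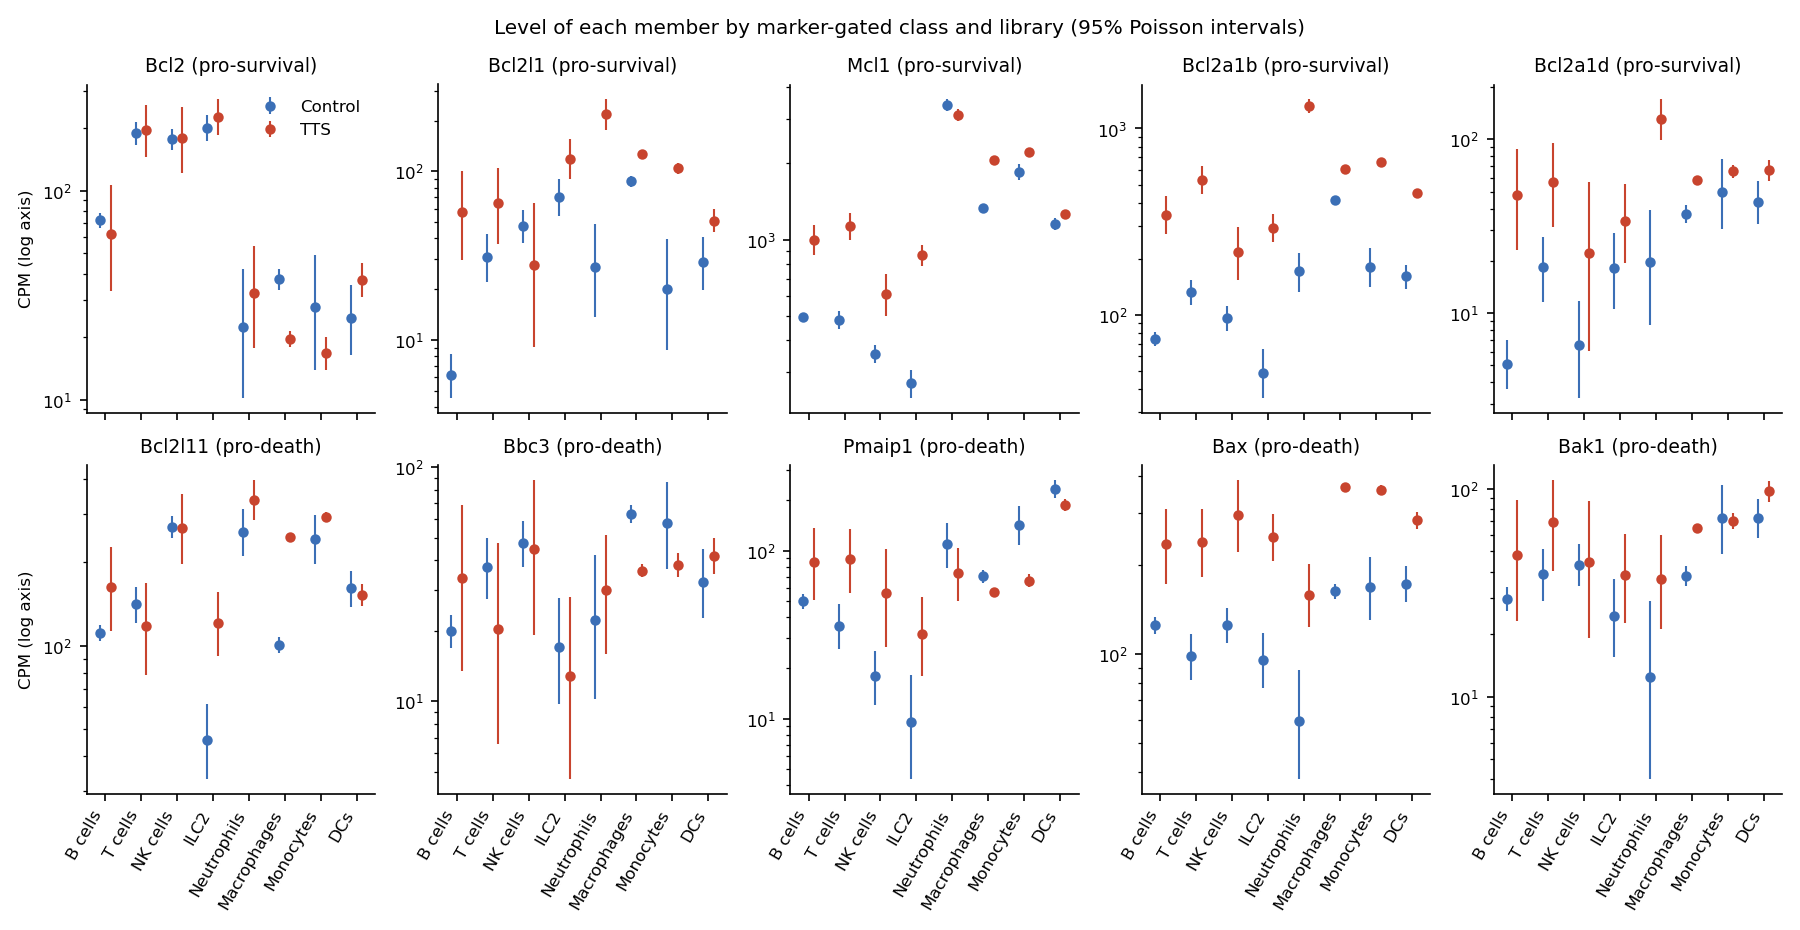
Level of each member in CPM, on log axes, by class for the Control (blue) and TTS (red) libraries, with exact 95% Poisson intervals that cover counting error only. Mcl1 was highest in neutrophils of both libraries, at 3396 and 3103 CPM, and Bcl2 in ILC2, at 199 and 225 CPM.

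Among the BH3-only genes, Bcl2l11 encodes Bim, the activator that removes lymphocytes deprived of survival signals. Its Control level was 269 CPM (245 to 295) in NK cells, 257 CPM (210 to 312) in neutrophils, and 243 CPM (197 to 297) in monocytes, which overlap. DCs had 161 CPM (138 to 186), T cells 141 CPM (121 to 163), B cells 111 CPM (104 to 119), macrophages 101 CPM (94.1 to 108), and ILC2 45.8 CPM (33.2 to 61.7). NK cells, which had the lowest pro-survival share, were thus also at the top for Bcl2l11, and ILC2 were below every other class. TTS B cells had 163 CPM (113 to 227, 34 UMIs), a log2 ratio of 0.57 (0.01 to 1.05), and the library intervals overlap. B cells below the macrophage limit had 107 and 70.3 CPM, with 4 UMIs in TTS, the other direction. NK cells were at 267 CPM (197 to 354) in TTS, with a log2 ratio of 0.00 (-0.47 to 0.42). In macrophages, Bcl2l11 was higher in TTS, at 246 CPM (240 to 252), a log2 ratio of 1.28 (1.18 to 1.39). ILC2 also had a higher level, 121 CPM (91.8 to 157), 2.64-fold that of Control, but thinning each cell before summing gave a log2 ratio of 0.05. The libraries overlap in monocytes, neutrophils, DCs, and T cells, with log2 ratios of 1.20 for neutrophils in thinned cells and 1.25 for monocytes and macrophages together.

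The quotient of Bcl2 to Bcl2l11 UMIs sets the best known pair of lymphocyte survival genes side by side. It was 4.35 in Control ILC2 (187 and 43 UMIs) and 1.34 in T cells (237 and 177 UMIs), and 0.651 in B cells (551 and 846 UMIs) and 0.655 in NK cells (298 and 455 UMIs). The B and NK cells thus had more Bcl2l11 than Bcl2 UMIs, and the T cells and ILC2 fewer. In TTS the quotients were 1.86 in ILC2 (106 and 57 UMIs), 1.66 in T cells (48 and 29 UMIs), 0.667 in NK cells (32 and 48 UMIs), and 0.382 in B cells (13 and 34 UMIs). Their exact 95% intervals were 1.34 to 2.61, 1.02 to 2.72, 0.412 to 1.06, and 0.185 to 0.743, so the quotient of TTS NK cells is not separable from 1. TTS B cells below the macrophage limit had 6 and 4 UMIs, the other side of 1, with an interval of 0.356 to 7.23. Myeloid quotients were lower, at most 0.373 in Control and 0.246 in TTS, and that of macrophages was 0.373 and 0.0794. The TTS value of 0.246, in DCs, lies within the interval of TTS B cells (0.185 to 0.743).

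Pmaip1 encodes Noxa, which binds Mcl1 and A1. DCs had most of it, with 232 CPM (205 to 262) in Control against 187 CPM (172 to 202) in TTS, the highest of all classes in both libraries. Monocytes were lower in TTS, with 66.1 CPM (60.3 to 72.3) against 143 CPM (108 to 185), a log2 ratio of -1.12 (-1.51 to -0.69). This was -0.40 in thinned cells, -0.32 with macrophages and monocytes counted together, -0.87 with doubled cut-offs, and -0.96 in the mean of CPM per cell. DCs and macrophages (70.2 and 56.7 CPM) were also lower with no overlap, by less than 2-fold. Among lymphocytes the values were on the higher side. T cells had 35.8 CPM (26.1 to 47.9) and 89.3 CPM (55.9 to 135), NK cells 17.8 CPM (up to 25.4) and 55.6 CPM (26.7 to 102), and B cells 50.1 CPM (45.2 to 55.3) and 86.1 CPM (51.1 to 136). The T cell and NK cell intervals do not overlap between libraries, those of B cells do, and the TTS levels rest on 22, 10, and 18 UMIs. ILC2 were past 2-fold with overlapping intervals (9 and 15 UMIs, log2 ratio 1.70). Doubled cut-offs turned the NK cell ratio from 1.69 to -1.40, and halved cut-offs gave 0.04 in T cells (1.34 in the main gates) and 0.52 in ILC2. Keeping barcodes of 2 lineages gave 0.83 in NK cells and 0.97 in T cells, and the mean of CPM per cell 0.66 in T cells. Thinned cells gave 2.54 in NK cells and 2.02 in T cells. These 2 values rest on few cells with a UMI, 5 Control and 1 TTS NK cells and 4 Control and 3 TTS T cells. T cells below the macrophage limit had 33.5 and 28.9 CPM, a log2 ratio of -0.09.

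Bbc3 encodes Puma, a BH3-only protein induced by p53. Levels were low in every class, between 17.0 CPM in ILC2 and 63.2 CPM in macrophages of Control, and between 12.8 CPM in ILC2 and 44.5 CPM in NK cells of TTS. B cells had 19.9 CPM (16.9 to 23.4) in Control and 33.5 CPM (13.5 to 69.0, 7 UMIs) in TTS. Below the macrophage limit they had 18.8 and 35.1 CPM, with 2 UMIs in TTS and a log2 ratio of 1.22. Macrophages had 63.2 CPM (57.8 to 68.9) and 36.1 CPM (33.8 to 38.6), a log2 ratio of -0.81 (-0.97 to -0.65), and were the class in which the libraries did not overlap. The level intervals overlap in the other classes. In monocytes thinned to 2000 UMIs, however, Bbc3 was found in 17.4% (7.82 to 31.4) of Control and 5.88% (4.34 to 7.77) of TTS cells, which do not overlap, while at 1000 UMIs the shares of 4.17% and 3.19% do. Summed thinned cells gave log2 ratios past 2-fold in B cells (1.33), neutrophils (1.31), DCs (3.05), and macrophages (-1.03). At this depth Bbc3 was found in 0 of 92 Control DCs, so the size of the DC value is set by the added 0.5 UMI. The B cell value rests on 1 TTS cell, and the neutrophil value on 2 Control and 3 TTS cells.

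The effector Bax, which forms pores in the outer mitochondrial membrane once activated, was higher in TTS in all 8 classes without overlap of the intervals. Control B cells had 125 CPM (117 to 133) and TTS B cells 235 CPM (173 to 310), a log2 ratio of 0.92 (0.47 to 1.32). In B cells below the macrophage limit the values were 124 CPM (115 to 133) and 228 CPM (122 to 391), with 13 UMIs in TTS and a log2 ratio of 0.94, and these intervals overlap. Macrophages had 163 CPM (154 to 172) and 366 CPM (359 to 374), a log2 ratio of 1.17 (1.08 to 1.25). The 8 ratios of Bax spanned 1.63-fold in DCs to 2.64-fold in neutrophils, on the log2 scale the narrowest range of the 10 members, and 6 of them were past 2-fold. In neutrophils, where Bax was lowest, it was at 59.4 CPM (38.0 to 88.3) and 159 CPM (124 to 201). Thinning each cell to 1000 UMIs before summing took the ratios of 4 classes under 2-fold, to 0.02 in NK cells, 0.68 in T cells, 0.96 in ILC2, and 0.74 in monocytes, and raised that of DCs to 1.45. The mean of CPM per cell gave 0.83 in neutrophils and 0.96 in T cells and in monocytes.

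Bak1, the second effector, was less abundant. Its levels were highest in monocytes and DCs of Control, at 72.7 CPM (48.7 to 104) and 72.5 CPM (57.8 to 89.9), and lowest in neutrophils, at 12.4 CPM (4.02 to 28.9, 5 UMIs). TTS DCs had 97.4 CPM (86.8 to 109) and TTS neutrophils 36.8 CPM (21.1 to 59.8), which overlaps Control at a log2 ratio of 1.48 (0.83 in thinned cells and 3.12 with halved cut-offs). Among thinned neutrophils, 1 cell of each library had a UMI of Bak1. B cells had 29.6 CPM (25.9 to 33.7) and 47.9 CPM (23.0 to 88.0), which overlap. Below the macrophage limit they had 28.2 and 87.9 CPM, with 5 UMIs in TTS and a log2 ratio of 1.77, and doubled cut-offs gave 1.04. Thinned cells were past 2-fold in DCs (1.59) and T cells (1.25). These values rest on 2 Control and 25 TTS DCs and on 5 Control and 2 TTS T cells with a UMI. Macrophages, with 38.2 CPM (34.0 to 42.7) and 64.9 CPM (61.7 to 68.1), were the class whose libraries did not overlap. On GRCm38, Bak1 lies at chr17:27019810-27029009, and Bax at chr7:45461697-45466898 on the same chromosome as Bbc3 (chr7:16308393-16318205). Bcl2 lies at chr1:106538178-106714274, Mcl1 at chr3:95658788-95663176, and Bcl2l1 and Bcl2l11 at chr2:152780668-152831728 and chr2:128126038-128162547.

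The share of cells in which a member was found depends on depth, and cells were therefore thinned to 1000 UMIs each, which left out 5 B cells, 1 T cell, and 1 NK cell of Control and no TTS cell of the 8 classes. Mcl1 was found in 37.2% (35.1 to 39.3) of Control and 44.7% (30.2 to 59.9) of TTS B cells, which overlap, against 74.0% and 83.0% before thinning. Thinned to 2000 UMIs, these were 55.4% (53.2 to 57.7) and 74.5% (59.7 to 86.1), which do not overlap. In neutrophils the shares were 92.9% (86.9 to 96.7) and 97.2% (90.2 to 99.7), which overlap. Bcl2a1b was found in 12.7% (7.44 to 19.8) of Control and 60.6% (48.3 to 72.0) of TTS neutrophils, and Bcl2l1 in 1.59% (0.193 to 5.62) and 28.2% (18.1 to 40.1), with unthinned shares of 27.8% and 85.9% for Bcl2a1b and 7.94% and 60.6% for Bcl2l1. Both shares were higher in TTS at equal depth, without overlap. They differed between classes, with Bcl2a1b in 6.32% (2.35 to 13.2) of TTS ILC2 and Bcl2l1 in 3.10% (1.49 to 5.62) of TTS DCs, but no class known to lack these genes was at hand to measure their background. Bcl2l11 was found in 9.47% (7.74 to 11.4) of Control and 20.3% (18.7 to 21.9) of TTS macrophages, and Bax in 15.0% (12.8 to 17.3) and 28.2% (26.4 to 30.0), where unthinned shares were 37.3% and 68.2%, and 57.6% and 89.3%. Bcl2 was found in 0 of 126 Control neutrophils (up to 2.89%) and 2.82% (0.343 to 9.81) of TTS neutrophils (3.17% and 11.3% unthinned). Control ILC2 were at 19.5% (13.6 to 26.5). Control B cells were at 5.63% (4.66 to 6.73) and Control macrophages at 4.14% (3.00 to 5.56), which overlap, whereas at 2000 UMIs their 11.9% (10.5 to 13.4) and 8.24% (6.56 to 10.2) do not. At 1000 UMIs, TTS B cells were at 2.13% (0.0539 to 11.3, 1 cell) and TTS DCs at 4.95% (2.86 to 7.92), which overlap. Median depths were 2732 and 4340 UMIs in neutrophils and 3236 UMIs in Control B cells.

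The counts of gene lists given here stand beside those over all genes, of which 15.2% were at least 2-fold higher and 11.0% lower in B cells (median log2 ratio 0.05), 7.94% and 22.6% in macrophages (-0.29), 20.5% and 11.9% in neutrophils (0.09), 8.69% and 17.0% in NK cells (-0.15), 11.6% and 11.7% in T cells (0.03), and 9.92% and 6.28% in ILC2 (0.10). Of the 11 other family genes, 7 were measured in B cells, with 1 at least 2-fold higher, 1 lower, and a median log2 ratio of 0.63. Bnip3l, a mitophagy receptor, was the lower gene, at 92.9 CPM in Control and 23.9 CPM in TTS B cells (log2 ratio -1.82). It was also lower in T cells (-1.72), NK cells (-2.68), and DCs (-1.39). In TTS it had 5 UMIs in B cells, 8 in T cells, and 2 in NK cells. The minimum of 50 UMIs for naming a gene favours genes lower in TTS in these 3 classes, which held fewer UMIs in TTS. In macrophages, 8 were measured, 1 was higher and 3 were lower, led by the BH3-only genes Bik (-2.77) and Bmf (-1.98). Bcl2a1a was the leading gene in ILC2 (4.96) and neutrophils (2.74). The ILC2 value rests on 3 Control and 54 TTS UMIs (3.54 to 7.49), and the split of counts among the Bcl2a1 copies is uncertain. For the apoptosome and caspases, 9 of 10 genes were measured in B cells, with 0 higher and 1 lower (median 0.08), and all 10 in macrophages, with 1 higher and 2 lower (median -0.38). The executioner caspase Casp6 was the higher gene in macrophages (14.8 and 34.9 CPM, log2 ratio 1.23), monocytes (1.59), and DCs (1.37). Apaf1, the scaffold of the apoptosome, was lower in T cells (41.3 and 12.2 CPM, log2 ratio -1.55, 3 UMIs in TTS).

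Of 5 inhibitors of apoptosis, 4 were measured in B cells, where 0 were higher and 1 lower, with a median log2 ratio of -0.50, and in macrophages 3 of 5 were lower (22.6% of all genes), with a median of -1.18 (-0.29 over all genes). The median was 0.09 in NK cells and -0.05 in neutrophils, with 1 higher and 1 lower. Xiap, which blocks caspases, had 161 CPM in Control and 101 CPM in TTS B cells (-0.64), and 160 and 66.8 CPM in NK cells (-1.21). Cflar, which blocks caspase-8, went the other way in neutrophils, at 98.9 and 375 CPM (log2 ratio 1.91). Among 9 death receptor genes, 2 were higher and 1 lower of 7 measured in B cells (median 0.12), and 0 were higher and 1 lower of 3 measured in neutrophils (median -0.27). Tnfrsf1a, the first TNF receptor, was at 591 CPM in Control and 221 CPM in TTS neutrophils (-1.41) and at 354 and 163 CPM in monocytes (-1.12).

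The p53 pathway induces Bbc3, Pmaip1, and Bax. Of its 10 genes, 8 were measured in B cells, with 2 higher, 1 lower, and a median log2 ratio of 0.04, and 9 in macrophages, with 0 higher, 1 lower, and a median of -0.14. In ILC2, 5 were measured, with 1 higher, 0 lower, and a median of 0.92, where the median over all genes was 0.10. Cdkn1a, the cell cycle inhibitor, was at 40.8 CPM in Control and 325 CPM in TTS B cells (3.01) and at 139 and 491 CPM in T cells (1.82), whereas Trp53inp1 was lower in both (-1.32 and -1.58). Lymphocyte survival receptors and ligands had 1 of 7 measured genes higher in B cells and 0 lower (median -0.46), 4 of 7 higher in NK cells (median 1.20, with 8.69% of all genes higher), and 0 of 6 in either direction in T cells (median -0.05). None of the 4 in NK cells reached 50 UMIs in TTS, and the more abundant Il2rb (670 and 584 CPM, -0.19) and Il2rg (307 and 289 CPM, -0.07) differed little there. Il4ra, the receptor chain for IL-4, was at 169 CPM in Control and 110 CPM in TTS B cells (-0.59), and Il21r at 174 and 110 CPM (-0.63).

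Glucocorticoids kill lymphocytes through Bim. The list of the glucocorticoid response holds the receptor gene Nr3c1 as well as response genes. Of the 9 genes of this list measured in B cells, 2 were higher and 2 lower (median 0.43). They were led by Dusp1 (149 and 589 CPM, log2 ratio 1.99) and Per1 (163 and 62.2 CPM, -1.33). Of 9 in T cells, 2 were higher and 0 lower (median 0.40), and of 9 in ILC2, 4 were higher and 1 lower (median 0.56). Of 9 in neutrophils, 0 were higher and 2 lower (median -0.43), and Tsc22d3, which encodes GILZ, was at 744 and 315 CPM there (-1.24). BH3 regulators, here mostly transcription factors that act on these genes and inhibitors of such factors, had 1 higher and 2 lower of 12 in B cells (median -0.29). In macrophages 1 was higher and 2 were lower of 14 (median -0.52). Nfkbia, the inhibitor and target of NF-κB, was at 331 CPM in Control and 1862 CPM in TTS B cells (2.49), at 5357 and 12604 CPM in neutrophils (1.23), and at 2499.9 and 6711 CPM in macrophages (1.42). Rel, a subunit of NF-κB, was lower in B cells (748 and 345 CPM, -1.11) and higher in T cells (139 and 312 CPM, 1.17). Of the 11 genes of dissociation stress, 6 were at least 2-fold higher in B cells (15.2% of all genes) and 0 lower, with a median of 1.16 (0.05 over all genes), and in macrophages 1 was higher and 5 were lower (22.6% of all genes), with a median of -0.80 (-0.29 over all genes). Ier3 led in B cells (17.2 and 292 CPM, 4.09) and Hspa1b in macrophages (1382 and 236 CPM, -2.55). The part of dissociation stress in the member values was not tested.

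Over the 16 values of class and library, the genes most like each member were found by Pearson correlation of log2(CPM + 1) among 5893 genes. Most alike were Aes, Tecpr1, and Rasal3 for Bcl2 (r from 0.94 to 0.95), Igsf6, Tnfaip2, and 1810033B17Rik for Mcl1 (0.95 to 0.97), and Phlda1, Gm17056, and Maff for Bcl2l1 (0.77 to 0.94). Clec4n, Bcl2a1a, and Il1a were nearest to Bcl2a1b (0.90 to 0.93), and Tnf, Ccdc109b, and Tnfsf9 to Bcl2a1d (0.90 to 0.92). For the pro-death members these were Ostf1, Cd9, and Ccl3 for Bcl2l11 (0.84 to 0.92), Tm6sf1, Flna, and Leprot for Bbc3 (0.78 to 0.80), and Lsp1, Amz1, and Rgs19 for Pmaip1 (0.91 to 0.95). Bax was nearest to Vdac2, D17Wsu104e, and Psmb2 (0.96 to 0.97), and Bak1 to AI662270, Pomp, and Psma7 (0.93 to 0.95). The 8 classes of each library share depth and free RNA, and Bbc3 and Bcl2a1d had 20 or more UMIs in only 9 of the 16 values.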

How the data were processed

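The deposited values are UMI counts per gene and cell barcode. According to the submitters' processing notes, the authors made these counts with bcl2fastq 2.19.1.403, UMI-tools 1.0.0, STAR 2.7.3a on mm10, and featureCounts 1.6.4 of Subread, without normalization. Cells with over 500 and under 6000 genes and under 25% mitochondrial UMIs were kept, as in the methods. A class was gated on the summed CPM of its markers, with cut-offs from 500 to 4000 CPM that were set after the data were seen, and at least 3 distinct markers. No doublet caller was run, and barcodes that passed gates of 2 lineages, with the DC gate not counted, were left out. The members and gene lists were chosen with earlier results of these data known.

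UMIs were summed by class and library, and log2 ratios had 0.5 UMI added and needed 20 UMIs over both libraries with the main settings. The alternatives were calculated for the same values without this minimum. Some of their ratios therefore rest on few UMIs, or on none in a library. Intervals are exact Poisson or Clopper-Pearson intervals at 95% and cover counting error only. All 10 members are named, and a figure shows their levels in every class. From each other list and class, genes were named among the 2 with the largest log2 ratio in size and at least 50 UMIs in the higher library, and for each member the 3 genes with the highest correlation. B, T, and NK cells held more UMIs in Control than in TTS, with 7629819 against 208940 in B cells. Genes lower in TTS therefore reached 50 UMIs more easily in these classes than genes higher in TTS. Alternatives changed the cut-offs, mixed barcodes, cell filters, cell weights, depth, scaling, free RNA, and the members summed. The steps were tested on simulated data, which covers counting error only. The work was done in Python 3.11.15 (pandas 2.3.3, numpy 2.4.6, scipy 1.17.1, matplotlib 3.10.9), and gene positions are from GENCODE M21 on GRCm38.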

Additional observations from a re-analysis of the deposited data

Results flagged for a closer look

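Pmaip1 had log2 ratios of opposite sign in T cells and NK cells and in monocytes, each with 1 library per group. The log2 ratio, TTS over Control, was 1.34 in T cells and 1.69 in NK cells, and -1.12 in monocytes. The difference between the classes was not tested. The TTS values of T cells and NK cells rest on 22 and 10 UMIs, and the Control value of monocytes on 57 UMIs. None of these values kept its side of 2-fold under every alternative, and the opposite signs were lost for NK cells with doubled cut-offs (-1.40) and for T cells below the macrophage limit (-0.09).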

How the results depend on the processing

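Of the 30 member values past 2-fold, all 30 stayed there with all deposited barcodes, with a limit of 10% mitochondrial UMIs, and without the 5% of cells with most UMIs. With barcodes of 2 lineages kept in their highest class 28 stayed, with scaling without mitochondrial, ribosomal protein, and Gm26924 UMIs 28, with doubled cut-offs 27, with halved cut-offs 24, with the mean of CPM per cell 21, and with cells thinned to 1000 UMIs 19. After subtraction of macrophage RNA 22 of 23 stayed. The balance (log2 ratio of the quotient) was less stable, with 68 values within the counting interval of the main value, 20 outside it, and 4 that turned a value whose interval excludes 0. In all, 15 of the 92 had the other sign, with 6 in ILC2 and 4 in neutrophils, where the interval of the main value includes 0. Doubled cut-offs gave 0.70 in NK cells, -0.35 in ILC2, -0.62 in neutrophils, 0.01 in monocytes, and 0.48 in DCs, and -1.40 for Pmaip1 in NK cells. Halved cut-offs gave 0.07 in B cells. Keeping barcodes of 2 lineages gave -0.46 in neutrophils and -0.13 in macrophages, and a log2 ratio of -4.70 for the share of B cells. Thinning to 1000 UMIs gave 0.11 in T cells, 0.50 in NK cells, -0.07 in macrophages, and -0.12 in DCs. The mean of CPM per cell gave -0.26 in ILC2. Without Mcl1 the balance was 0.95 in B cells, -0.23 in ILC2, 2.36 in neutrophils, -0.32 in macrophages, 1.34 in monocytes, and 1.05 in DCs, and without Bcl2a1b and Bcl2a1d it was -0.50 in neutrophils, 0.04 in monocytes, and -0.01 in DCs. The share of monocytes with Bcl2 had a log2 ratio of 0.08 when cells were thinned to 2000 UMIs. Further alternatives were chosen after seeing the data. Cells below 1000 CPM of macrophage markers gave a balance of -0.39 in B cells, -0.13 for Bcl2a1b in B cells, and -0.09 for Pmaip1 in T cells, and 17 of 23 member values stayed past 2-fold. The 17 include Pmaip1 in ILC2 (6 and 8 UMIs) and Bak1 in neutrophils (3 and 9 UMIs), which had under 20 UMIs there. Macrophages and monocytes counted together gave a balance of -0.20, and 3 of 6 stayed. Leaving out members changes the sums by construction, and for the other settings the cause was not tested. No paired analysis was possible because each group has 1 library, and the replicate number shared by both libraries marks no pair. With 47, 41, and 33 TTS cells, the B, T, and NK cell values of the less abundant members rest on few UMIs.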
